A study of Mus musculus with 22 samples.

Results

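Pulmonary surfactant coats the inner surface of the alveoli, and 10 genes of its proteins and of the lamellar body, the organelle that stores it, were followed in mouse lung epithelium. They were chosen by name, with earlier results of these data known. They are the surfactant protein genes Sftpa1, Sftpb, Sftpc and Sftpd and the protease genes Napsa and Ctsh. The others are the lamellar body membrane genes Abca3 and Lamp3, the phospholipid enzyme gene Lpcat1 and the phosphate transporter gene Slc34a2. All 10 were measured at both ages, among 13750 genes at E18.5, shortly before birth, and 15958 genes at 6 months. None of the 10 was at the lowest value of any library.

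The series holds RNA-seq of lung epithelial cells from mice with altered alleles of Nkx2-1, which encodes a homeodomain factor of lung and thyroid epithelium, and of NANCI, the long noncoding RNA gene beside it; its title asks how the pair buffers Nkx2-1 expression. The WT group was NANCI-+/+. The NANCI group was homozygous (NANCI-CreERT2:RFP/CreERT2:RFP), with an allele whose name gives a Cre inducible by tamoxifen and a red reporter. The Nkx group was heterozygous for a green reporter allele (Nkx2.1-GFP/+), and the Double group was heterozygous for both alleles (NANCI-CreERT2:RFP/+:Nkx2.1-GFP/+). Each of these 4 groups had 3 libraries at E18.5. At 6 months there were 3 WT, 3 Nkx and 4 Double libraries and no NANCI group. Cells were pulled down on magnetic beads for the epithelial surface protein EpCAM at E18.5, and sorted as EpCAM+, CD45- and CD31- at 6 months, so that age and enrichment changed together and no difference was tested between the ages. The sources used here do not say whether tamoxifen was given, which part of each gene the alleles replace or whether libraries came from separate animals. P-values therefore measure the spread between these libraries, which may be technical in part.

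Surfactant is a film of phospholipid and protein that lowers surface tension, so that alveoli do not collapse at the end of a breath. It is made by alveolar type 2 (AT2) cells, which assemble it in lamellar bodies, secrete it, and take much of it up again, and its production rises toward birth. The small hydrophobic proteins B and C are cut from larger precursors on the way to the lamellar body and act in the film, whereas A and D are larger collectins that bind microbial sugars. Nkx2-1 protein is known to act on the promoters of several of these genes, together with forkhead and C/EBP factors.

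The members are spread over the genome, and positions are given in GRCm38 from GENCODE. Sftpa1 (ENSMUSG00000021789, chr14:41131782-41136452, plus strand) and Sftpd (ENSMUSG00000021795, chr14:41172214-41185149, minus strand) are neighbours, 35.8 kb apart. Sftpc (ENSMUSG00000022097, chr14:70520949-70524081, minus strand) lies farther along the same chromosome. Sftpb (ENSMUSG00000056370) is at chr6:72304610-72314371 on the plus strand. Napsa (ENSMUSG00000002204) is at chr7:44572380-44586862 and Ctsh (ENSMUSG00000032359) at chr9:90054152-90076089, both on the plus strand. Abca3 (ENSMUSG00000024130) is at chr17:24351950-24410201 on the plus strand and Lamp3 (ENSMUSG00000041247) at chr16:19653378-19706375 on the minus strand. Lpcat1 (ENSMUSG00000021608) is at chr13:73467197-73516422 and Slc34a2 (ENSMUSG00000029188) at chr5:53038081-53071664, both on the plus strand.

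Sequences before the start sites are shown because the allele studied belongs to a DNA-binding factor. The RefSeq table held 6 of the 10 members, all of which fell in Double against WT at both ages. The 4 printed are those with a match to a searched motif in the window; Lpcat1 and Abca3 had none there. Each line gives the 150 bases before the start, 5′ to 3′ in the direction of the gene, from RefSeq on GRCm38.p6. Sftpb is chr6:72304460-72304609 and Sftpa1 chr14:41131638-41131787, both on the plus strand. Lamp3 is chr16:19706366-19706515 on the minus strand, and Slc34a2 is chr5:53049203-53049352 on the plus strand, before a RefSeq start that lies inside the GENCODE gene. Capitals mark matches on either strand to CAAG (the core of NKX2 sites; CTTG on the other strand), TGTTTAC or TGTTTGC (forkhead sites; GCAAACA is the second on the other strand) and TTNNGCAA (a C/EBP site).
Sftpb: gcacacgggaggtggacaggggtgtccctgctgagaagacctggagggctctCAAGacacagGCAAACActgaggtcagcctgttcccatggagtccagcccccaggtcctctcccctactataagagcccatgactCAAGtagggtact
Sftpa1: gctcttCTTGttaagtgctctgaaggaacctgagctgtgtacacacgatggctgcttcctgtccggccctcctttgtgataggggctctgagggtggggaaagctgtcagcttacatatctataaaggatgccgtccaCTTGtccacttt
Lamp3: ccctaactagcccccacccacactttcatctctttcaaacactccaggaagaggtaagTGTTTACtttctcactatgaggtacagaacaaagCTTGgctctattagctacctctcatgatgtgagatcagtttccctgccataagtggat
Slc34a2: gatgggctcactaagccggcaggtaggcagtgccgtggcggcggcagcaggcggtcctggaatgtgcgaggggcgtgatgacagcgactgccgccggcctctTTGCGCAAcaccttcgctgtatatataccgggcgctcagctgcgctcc

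In the 250 bases before the start that were searched, Sftpa1 held 6 matches to CAAG and Sftpb 3. Abca3 held 2, both farther than 150 bases from the start, Lamp3 held 1, and Lpcat1 and Slc34a2 held none. CAAG is short, and 86.6% of 32851 promoters of the same length held it, with a median of 2 matches. The longer NKX2-1 site TCAAGTG, in 2.68% of promoters, was in none of the 6. TGTTTGC was in Sftpb (4.3% of promoters), TGTTTAC in Lamp3 (3.17%) and TTNNGCAA in Slc34a2 (9.56%). A match is a match of letters and was not tested as a binding site.

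Values are deposited log2 expression, in which all libraries of an age have nearly the same distribution, as quantile normalization gives. A value then follows from the rank of the gene in its library. At 6 months rank 3 read 19.74 for Sftpa1 in WT replicate 1 and for Sftpc in Double replicate 3. Folds of highly ranked members such as Sftpa1, Sftpb and Slc34a2 are therefore changes of rank read on this shared scale. Levels are not per length as far as stated, so levels of different genes were not compared. Read totals are not in the values. Across genes, libraries correlated with each other at 0.91 to 0.985 (E18.5) or 0.859 to 0.977 (6 months). Levels of markers of other cells moved with the groups, as the plot of marker levels shows. The mean of 10 measured leukocyte markers was 7.17 to 7.52 in E18.5 WT libraries, 4.27 to 5.8 in Nkx and 4.38 to 5.45 in Double. At 6 months the mean of 10 endothelial markers was 11.46 to 12.56 in WT, 10.85 to 11.8 in Nkx and 8.57 to 9.7 in Double, and that of 10 pan-epithelial genes was 12.62 to 12.67, 12.68 to 12.78 and 13.1 to 13.32. Pecam1, the gene of the CD31 that the 6-month gate excluded, had a mean of 12.83 ± 0.66 in WT and 9.91 ± 0.73 in Double libraries. No marker was at the lowest value in all libraries of a group. By Xist and Y-linked genes, all E18.5 NANCI libraries had a male pattern and all 6-month Double libraries a female pattern, and the other 5 groups held both. A library was called female where Xist exceeded the mean of its Y-linked genes, and male otherwise. E18.5 Nkx replicate 3 (Xist 11.34, Y-linked mean 12.22) and 6-month WT replicate 2 (9.64 and 10.14) were called male on small margins.

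**Figure D1:**
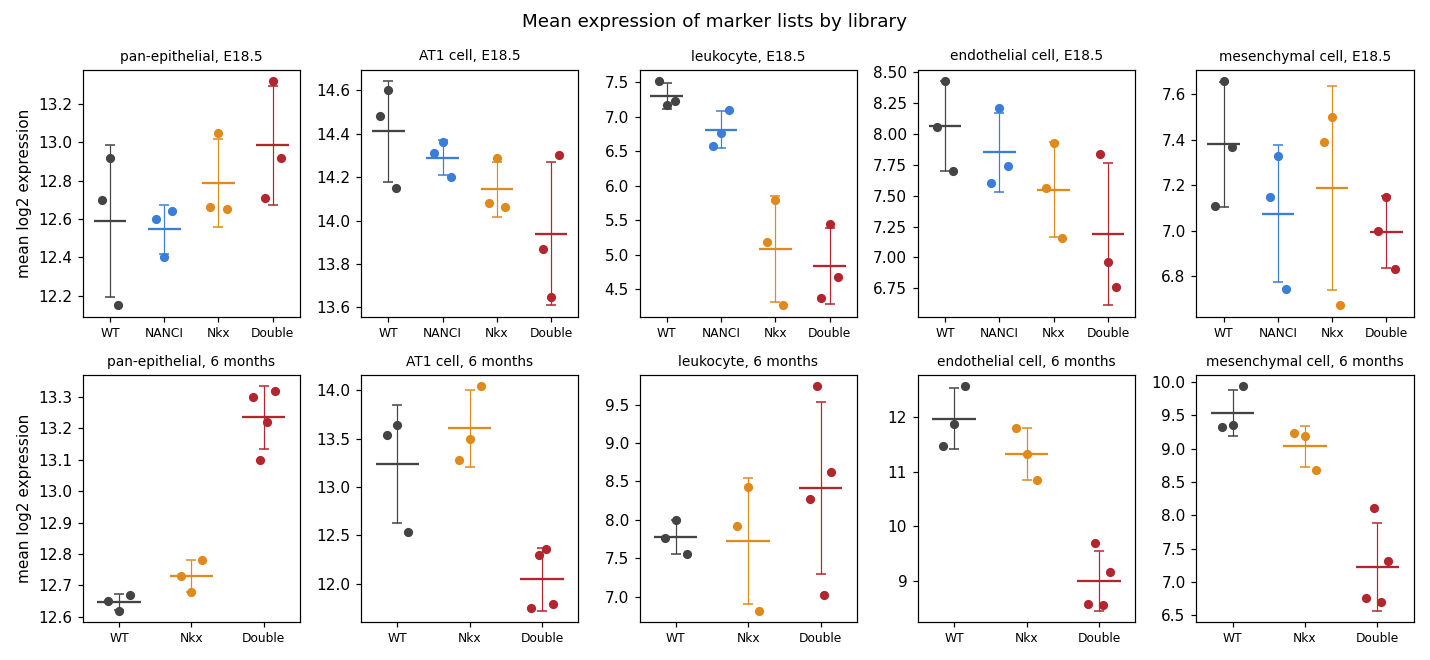
Mean log2 expression of each marker list in each library (points), by genotype group, at E18.5 and at 6 months; the vertical axis is log2. The 6-month Double libraries sit at 8.57 to 9.7 for endothelial markers, below all WT and Nkx libraries, and at 13.1 to 13.32 for pan-epithelial genes, above them.

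Across the genotypes, most of the surfactant and lamellar body genes fell in Double against WT at both ages. In E18.5 Double against WT, 8 of the 10 passed the threshold (limma, Benjamini-Hochberg adjusted p under 0.05 over all genes), all lower, where 7.47% of all genes passed as lower and 7.13% as higher. In Nkx against WT at that age 2 of 10 passed, both lower, beside 3.65% of all genes that passed as lower and 3.67% as higher. In E18.5 NANCI against WT 0 of 10 passed, beside 0% of all genes. There 0 of 10 had an unadjusted p under 0.05, beside 426 of all 13750 genes. At 6 months, 7 of 10 passed as lower in Double against WT, beside 17.9% of all genes (18.4% passed as higher), and 5 of 10 in Double against Nkx, beside 11.5% (10.2% as higher). In 6-month Nkx against WT 0 of 10 passed, beside 1.11% of all genes that passed as lower and 1.52% as higher. There 3 of 10 had an unadjusted p under 0.05, as did 3495 of all 15958 genes, a share not far from it. The median log2 difference of the 10 from WT was -0.03 in NANCI, -0.68 in Nkx and -1.19 in Double at E18.5, where the medians of all genes were 0.01, 0.02 and 0.02. At 6 months it was -0.44 in Nkx and -1.52 in Double, against 0.01 and 0.06 for all genes. The 10 and the gene lists used below were chosen with earlier results of these data known. Their counts beside all genes are therefore no independent test. In such bulk samples, fewer AT2 cells and less RNA per AT2 cell cannot be told apart.

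**Figure D2:**
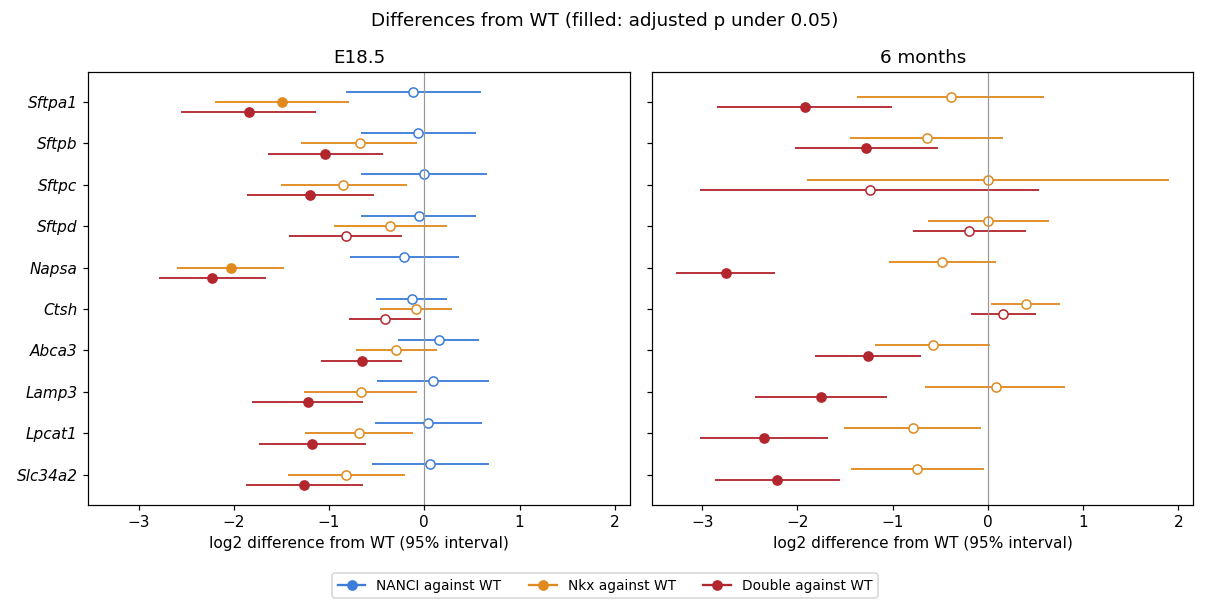
Log2 difference from WT of each gene (points, limma estimate) with its 95% interval (lines), at E18.5 and at 6 months, by genotype; filled points have an adjusted p under 0.05. Napsa lies farthest left in Double libraries at both ages, at -2.23 and -2.75, and the NANCI points at E18.5 lie between -0.21 and 0.15.

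Among the surfactant protein genes, Sftpa1, which encodes the collectin A, showed the greatest difference of the 4 in Double against WT. Its log2 expression at E18.5 was 17.35, 17.08 and 17.5 (WT), 17.24, 17.24 and 17.08 (NANCI), 16.22, 15.38 and 15.84 (Nkx), and 16.11, 14.59 and 15.71 (Double). All Nkx and Double libraries lay below all WT and NANCI libraries. Sftpa1 fell 2.82-fold in Nkx against WT (log2 difference -1.49 ± 0.33 (SE), adjusted p = 0.0154) and 3.58-fold in Double (-1.84 ± 0.33, adjusted p = 0.00271). The Nkx call was lost without WT replicate 1 (adjusted p = 0.0618), Nkx replicate 2 (0.066) or Nkx replicate 3 (0.0541), and relative to the pan-epithelial genes (-1.69, adjusted p = 0.0881). At 6 months Sftpa1 was 19.74, 19.74 and 19.26 (WT), 19.26, 19.26 and 19.04 (Nkx), and 17.27, 18.25, 18.08 and 17.01 (Double). The Double libraries were below all others, whereas Nkx and WT met at 19.26. Sftpa1 ranked 3 to 20 over these libraries, so its folds are read from values set by rank. Sftpa1 fell 3.79-fold in Double against WT (log2 difference -1.92 ± 0.42, adjusted p = 0.00418) and 2.89-fold against Nkx (-1.53 ± 0.42, adjusted p = 0.0225). The latter call did not hold with the replicate block (-1.32, adjusted p = 0.117), with the sex pattern as a covariate (-1.49, adjusted p = 0.0508) or without any 1 of Double replicates 1 and 4 and the 3 Nkx replicates (adjusted p = 0.0576 to 0.0852).

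Sftpb, whose product is needed for breathing at birth, read 16.27, 16.52 and 15.54 (WT), 16.14, 15.87 and 16.11 (NANCI), 15.8, 15.48 and 14.99 (Nkx), and 15.35, 14.6 and 15.26 (Double) at E18.5. The Double libraries lay below all WT libraries, and Nkx overlapped WT at the lowest WT library, replicate 3. Sftpb fell 2.05-fold in Double (log2 difference -1.04 ± 0.28, adjusted p = 0.0261), while the Nkx difference of -0.68 ± 0.28 did not pass (adjusted p = 0.174). The Double call was lost without WT replicate 1 (adjusted p = 0.0973), WT replicate 2 (0.0897) or Double replicate 2 (0.107). Without WT replicate 3 the Nkx difference was -0.97 (adjusted p = 0.0254). At 6 months Sftpb was 19.04, 18.88 and 18.88 (WT), 18.44, 18 and 18.44 (Nkx), and 17.73, 17.17, 17.47 and 18.25 (Double). Nkx and Double libraries were all below WT, and Double replicate 4 lay among the Nkx libraries. The fall in Double against WT was 2.42-fold (log2 difference -1.28 ± 0.34, adjusted p = 0.0134), and did not pass with the sex pattern as a covariate (-1.18, adjusted p = 0.084). Neither Nkx against WT (-0.64 ± 0.37, adjusted p = 0.332) nor Double against Nkx (-0.63 ± 0.34, adjusted p = 0.22) passed.

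Sftpc, the AT2-restricted hydrophobic protein gene, was the most abundant gene of several libraries, and there its value is capped by the shared distribution. At E18.5 it was 19.62, 19.62 and 18.78 (WT), 19.62, 18.78 and 19.62 (NANCI), 18.78, 18.45 and 18.26 (Nkx), and 18.26, 17.92 and 18.26 (Double). In ranks it was 1, 1 and 2 (WT) and 1, 2 and 1 (NANCI), but 2, 3 and 4 (Nkx) and 4, 5 and 4 (Double). Sftpc fell in Double against WT, by 1.2 ± 0.31 on the log2 scale (adjusted p = 0.0207), which the cap makes a change of rank and not a measured fold. This call was lost without WT replicate 1 (adjusted p = 0.0842), WT replicate 2 (0.0774) or Double replicate 2 (0.0708). Its Nkx difference was -0.85 ± 0.31 (adjusted p = 0.123), and -1.13 without WT replicate 3 (adjusted p = 0.0236). At 6 months Sftpc ranked 1 in all WT and Nkx libraries (21.19 each), while the Double libraries read 18.64, 21.19, 19.74 and 20.24 and ranked 7, 1, 3 and 2. Double replicate 2 thus shared the cap with WT, and the difference of -1.24 ± 0.81 (adjusted p = 0.26; 95% interval -3.02 to 0.54) did not pass.

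Sftpd, the gene of collectin D and the neighbour of Sftpa1, differed least of the 4 in Double against WT. Its E18.5 values were 14.6, 14.54 and 13.63 (WT), 14.12, 14.13 and 14.34 (NANCI), 13.92, 14.07 and 13.71 (Nkx), and 12.86, 13.91 and 13.53 (Double). WT replicate 3, the lowest of its group, lay below all Nkx libraries and within the Double group, and the Double difference of -0.82 ± 0.28 did not pass (adjusted p = 0.0657). It passed without WT replicate 3 (-1.13, adjusted p = 0.00629) or without Double replicate 2 (-1.06, adjusted p = 0.034), and relative to the 10 pan-epithelial genes of each library (-1.22, adjusted p = 0.00268), a scaling that set the median of all genes at -0.37. At 6 months Sftpd was 17.73, 17.17 and 17.47 (WT), 17.36, 17.66 and 17.36 (Nkx), and 17.07, 17.73, 17.27 and 16.98 (Double). The groups overlapped, with a log2 difference in Double against WT of -0.2 ± 0.27 (adjusted p = 0.613) and a 95% interval of -0.79 to 0.4. Relative to the pan-epithelial genes it was -0.78 and passed (adjusted p = 0.0383), with the median of all genes at -0.52.

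Napsa and Ctsh encode proteases that cut the precursors of surfactant proteins B and C, and their values went apart. Napsin A, the Napsa product, is an aspartic protease, and Napsa had the greatest difference of the 10 genes in Double against WT at both ages. Its log2 expression at E18.5 was 14.97, 14.99 and 14.08 (WT), 14.57, 14.27 and 14.56 (NANCI), 12.83, 12.81 and 12.29 (Nkx), and 12.77, 11.98 and 12.61 (Double). More than 1 log2 unit separated the lowest WT or NANCI library from the highest Nkx or Double library. Napsa fell 4.1-fold in Nkx (log2 difference -2.03 ± 0.26, adjusted p = 7e-04) and 4.68-fold in Double (-2.23 ± 0.26, adjusted p = 0.000196). The 6-month values of Napsa were 16.35, 16.16 and 16.07 (WT), 15.71, 15.77 and 15.66 (Nkx), and 12.98, 14.04, 13.74 and 13.02 (Double), 3 levels without overlap. Napsa fell 6.74-fold in Double against WT (-2.75 ± 0.24, adjusted p = 1.3e-05) and 4.82-fold against Nkx (-2.27 ± 0.24, adjusted p = 0.000156). The Nkx difference from WT, -0.48 ± 0.26, did not pass (adjusted p = 0.294).

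Ctsh, the gene of the lysosomal cysteine protease cathepsin H, passed in 0 of the 7 comparisons as deposited, and in 2 of them relative to the pan-epithelial genes. At E18.5 it read 17.03, 17.15 and 16.72 (WT), 16.84, 16.72 and 16.94 (NANCI), 16.77, 17.15 and 16.72 (Nkx), and 16.67, 16.52 and 16.48 (Double). All Double libraries lay just below the rest, at a difference of -0.41 ± 0.17 from WT (adjusted p = 0.147); relative to the pan-epithelial genes it was -0.8 (adjusted p = 0.0287). At 6 months Ctsh was 15.46, 15.42 and 15.34 (WT), 15.58, 16.02 and 15.82 (Nkx), and 15.43, 15.69, 15.71 and 15.46 (Double). Here the Nkx libraries were all above WT (0.4 ± 0.17, adjusted p = 0.2), and Double overlapped both (0.16 ± 0.16 against WT, adjusted p = 0.45). Relative to the 10 pan-epithelial genes of each library, the Double difference became -0.42 (adjusted p = 0.0642), where that scaling set the median of all genes at -0.52. Against Nkx it was -0.74 and passed (adjusted p = 0.00618), with the median of all genes at -0.47. The whole deposited range of Ctsh over the libraries of an age was 0.67, against 3 for Napsa at E18.5 and 3.37 at 6 months.

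The log2 ratio of Napsa to Ctsh within a library would not change with a single scaling factor of that library. The quantile normalization inferred here maps values by rank and is no such factor, so the ratios still depend on it. This pair and the next were chosen after their values were seen. At E18.5 the ratio was -2.06, -2.17 and -2.64 (WT), -2.26, -2.45 and -2.38 (NANCI), -3.93, -4.34 and -4.43 (Nkx), and -3.9, -4.53 and -3.88 (Double). The difference from WT was -1.95 log2 units in Nkx and -1.82 in Double, each without overlap, with an exact two-sided permutation p = 0.1, the smallest that 3 libraries against 3 allow. Nkx and Double overlapped, with a difference of 0.13 (exact permutation p = 0.8). At 6 months it was 0.89, 0.75 and 0.73 (WT), 0.13, -0.24 and -0.16 (Nkx), and -2.45, -1.64, -1.97 and -2.44 (Double). The 3 groups lay at separate levels there. The difference of Double was -2.92 from WT and -2.04 from Nkx (exact permutation p = 0.0571 each, the smallest for 4 against 3), and that of Nkx from WT was -0.88 (exact permutation p = 0.1, the smallest possible).

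For the neighbours Sftpa1 and Sftpd the 6-month log2 ratio was 2, 2.57 and 1.78 (WT), 1.9, 1.6 and 1.68 (Nkx), and 0.2, 0.52, 0.81 and 0.03 (Double). All Double libraries lay below the others, with a difference of -1.73 from WT and -1.34 from Nkx (exact permutation p = 0.0571 each). At E18.5 it was 2.75, 2.54 and 3.86 (WT), 3.12, 3.11 and 2.75 (NANCI), 2.3, 1.31 and 2.13 (Nkx), and 3.25, 0.67 and 2.17 (Double). Nkx was below WT without overlap (-1.14, exact permutation p = 0.1), and Double spread across the others (-1.02, exact permutation p = 0.4). The 2 ratios were compared in 7 contrasts each, and no p was below the smallest allowed.

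**Figure D3:**
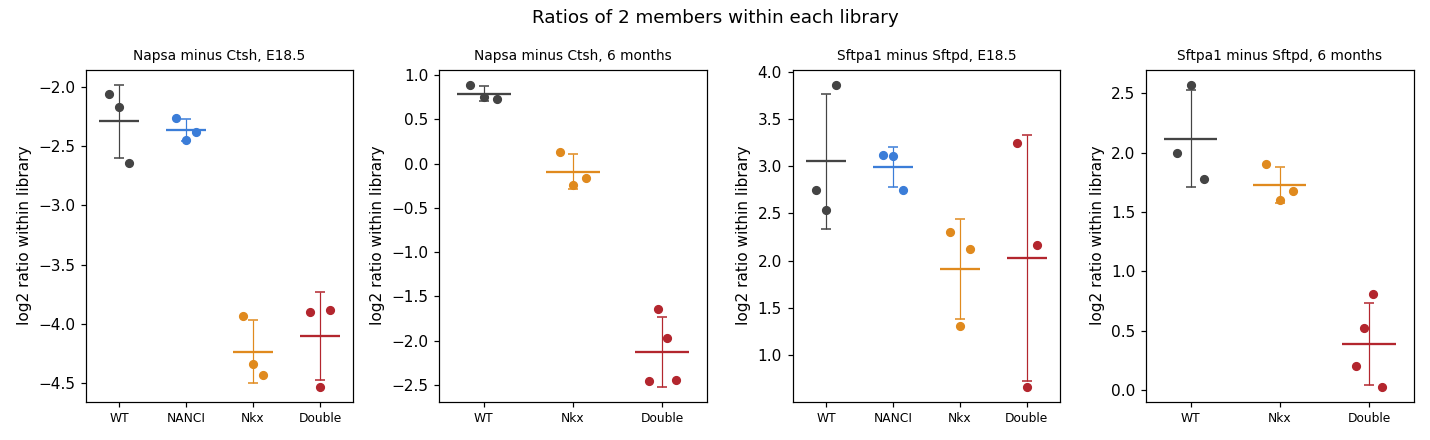
Log2 ratio of Napsa to Ctsh and of Sftpa1 to Sftpd in each library (points) with the group mean (line), by genotype group, at E18.5 and at 6 months. The 6-month Double libraries lie between -2.45 and -1.64 for Napsa to Ctsh and between 0.03 and 0.81 for Sftpa1 to Sftpd, below all WT and Nkx libraries.

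The lamellar body membrane genes were both lower in Double libraries at both ages. Abca3, the transporter that moves phospholipid into the lamellar body, read 15.99, 16.22 and 15.71 (WT), 16.22, 16.09 and 16.04 (NANCI), 15.98, 15.6 and 15.44 (Nkx), and 15.54, 14.97 and 15.44 (Double) at E18.5. Double lay below WT without overlap and Nkx did not. Abca3 fell 1.57-fold in Double (log2 difference -0.65 ± 0.2, adjusted p = 0.0416), the smallest passing difference of the 10 genes there. That call was lost without WT replicate 1 (adjusted p = 0.113), WT replicate 2 (0.13), Double replicate 2 (0.155) or Double replicate 3 (0.0727). It was also lost with no trend (0.0533), with only both groups in the model (0.127) and with the sex pattern as a covariate (0.0599). At 6 months Abca3 was 16.57, 16.87 and 17.01 (WT), 16.47, 16.12 and 16.12 (Nkx), and 14.9, 15.52, 15.93 and 15.9 (Double). The groups stepped down without overlap. Abca3 fell 2.39-fold in Double against WT (-1.26 ± 0.26, adjusted p = 0.00277), whereas Nkx against WT (-0.58 ± 0.27, adjusted p = 0.241) and Double against Nkx (-0.68 ± 0.26, adjusted p = 0.0816) did not pass.

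Lamp3, a lysosome-associated membrane glycoprotein found on the limiting membrane of lamellar bodies, read 16.72, 16.48 and 17.08 (WT), 16.77, 16.94 and 16.84 (NANCI), 16.27, 15.78 and 16.22 (Nkx), and 16.09, 14.87 and 15.65 (Double) at E18.5. Both groups were below WT and NANCI without overlap. Lamp3 fell 2.34-fold in Double (log2 difference -1.22 ± 0.27, adjusted p = 0.00977), and the Nkx difference of -0.67 ± 0.27 did not pass (adjusted p = 0.17). At 6 months Lamp3 was 16.72, 16.93 and 16.53 (WT), 16.72, 16.98 and 16.72 (Nkx), and 14.21, 15.66, 15.46 and 14.6 (Double). Nkx and WT lay at one level (0.08 ± 0.34, adjusted p = 0.917, 95% interval -0.66 to 0.81). Lamp3 fell 3.36-fold in Double against WT (-1.75 ± 0.31, adjusted p = 0.00132) and 3.55-fold against Nkx (-1.83 ± 0.31, adjusted p = 0.00218).

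Lpcat1 encodes an acyltransferase that remodels lysophosphatidylcholine to the saturated phosphatidylcholine of surfactant. At E18.5 it was 16.41, 16.44 and 15.98 (WT), 16.44, 16.31 and 16.2 (NANCI), 15.97, 15.66 and 15.13 (Nkx), and 15.52, 14.54 and 15.24 (Double). Both groups lay below WT, the nearest Nkx library (15.97) just under the lowest WT library (15.98). Lpcat1 fell 2.26-fold in Double (-1.18 ± 0.26, adjusted p = 0.00977), and Nkx did not pass (-0.69 ± 0.26, adjusted p = 0.141). At 6 months it was 16.27, 16.72 and 16.2 (WT), 15.73, 15.3 and 15.8 (Nkx), and 13.35, 14.9, 14.14 and 13.79 (Double). Lpcat1 had 3 separate levels there. It fell 5.1-fold in Double against WT (-2.35 ± 0.31, adjusted p = 0.000169) and 2.95-fold against Nkx (-1.56 ± 0.31, adjusted p = 0.00435), and the Nkx difference from WT was -0.79 ± 0.33 (adjusted p = 0.195).

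Slc34a2 encodes the sodium-phosphate cotransporter of the AT2 apical membrane, which clears phosphate left by surfactant breakdown. Its E18.5 values were 18.26, 18.26 and 18.45 (WT), 18.26, 18.45 and 18.45 (NANCI), 17.92, 17.35 and 17.24 (Nkx), and 17.67, 16.44 and 17.08 (Double). Nkx and Double were below the rest. Slc34a2 fell 2.39-fold in Double (-1.26 ± 0.28, adjusted p = 0.0109), while the Nkx difference of -0.82 ± 0.28 did not pass (adjusted p = 0.108). At 6 months it was 18.44, 18.64 and 18.44 (WT), 17.73, 17.73 and 17.83 (Nkx), and 15.61, 16.57, 16.82 and 16.2 (Double). The levels were again separate, with a fall of 4.62-fold in Double against WT (-2.21 ± 0.3, adjusted p = 0.000214) and 2.76-fold against Nkx (-1.47 ± 0.3, adjusted p = 0.0053). Nkx against WT was -0.74 ± 0.32 (adjusted p = 0.207).

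**Figure D4:**
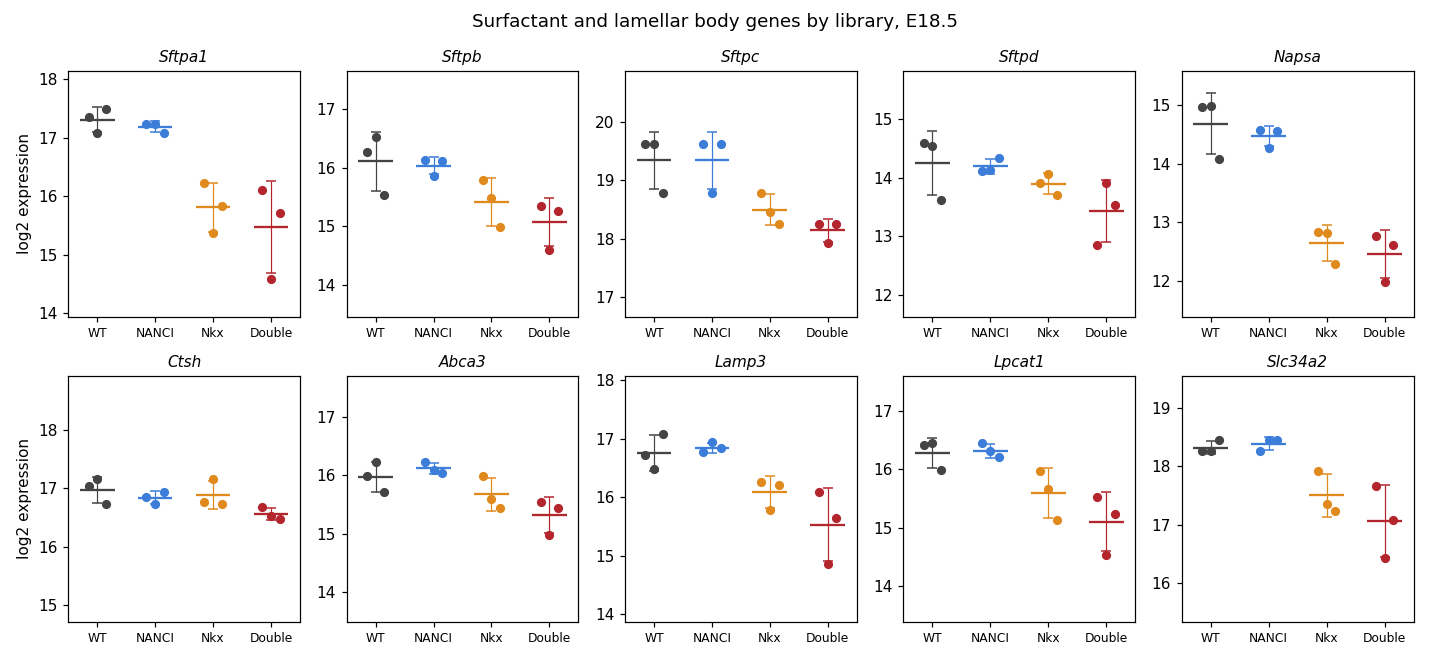
Log2 expression of each of the 10 genes in each E18.5 library (points), with the group mean (wide line) and SD (bars), in WT, NANCI, Nkx and Double. NANCI points lie among WT points, and in 9 of the 10 panels, all but Sftpd, the Double points lie below all WT points.

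**Figure D5:**
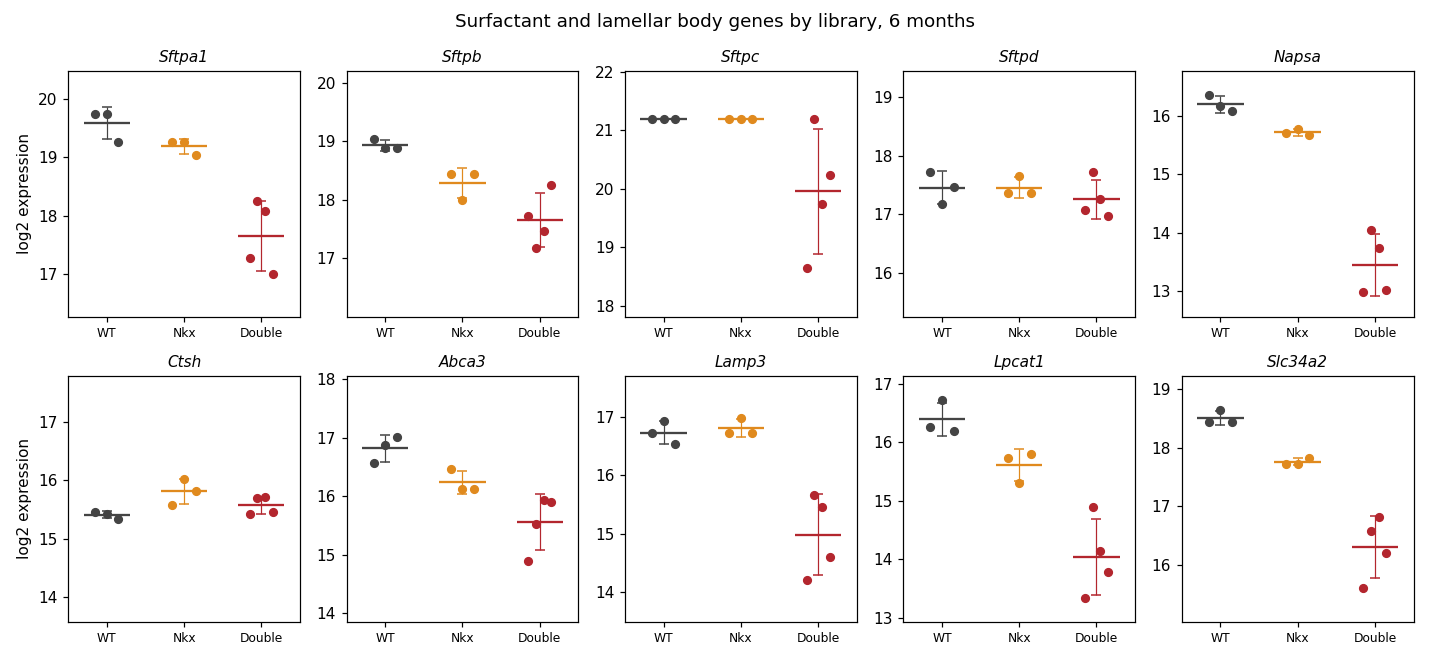
Log2 expression of each of the 10 genes in each 6-month library (points), with the group mean (wide line) and SD (bars), in WT, Nkx and Double. In 7 panels the Double points lie below all WT points, and Sftpc sits at its cap of 21.19 in all WT and Nkx libraries.

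The homozygous NANCI libraries could not be told from WT in these genes. All 10 overlapped WT, where 6.27% of all genes did not, with log2 differences of -0.21 (Napsa) to 0.15 (Abca3) and adjusted p-values of 0.978 to 1. The 95% intervals ran from -0.82 at the lowest (Sftpa1) to 0.68 at the highest (Lamp3 and Slc34a2). For each gene, changes inside its own interval are not excluded by these libraries, and some intervals were narrower, as for Abca3 (-0.28 to 0.57). All 3 NANCI libraries had the male pattern, as did 1 of the 3 WT libraries.

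In Nkx against WT at E18.5, the difference was below 0 for all 10 genes. The Nkx libraries lay below all WT libraries for 5 of them (Sftpa1, Napsa, Lamp3, Lpcat1 and Slc34a2), beside 10.4% of all genes. At 6 months the corresponding 5 were Sftpb, Napsa, Abca3, Lpcat1 and Slc34a2, beside 14.4% of all genes, and Ctsh lay above WT, as 16.1% of all genes did. Double against WT gave 9 of 10 without overlap at E18.5 (13.3% of all genes were below) and 7 of 10 at 6 months (18.9%). The comparisons with WT share the WT libraries, so their common direction is not independent.

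Whether the added NANCI allele lowered these genes beyond the Nkx2.1-GFP allele is read from Double against Nkx. At E18.5 the difference was below 0 for all 10 genes, from -0.55 ± 0.27 (Lamp3) to -0.19 ± 0.26 (Napsa). However, 0 of 10 passed, and 0% of all genes passed as lower. An unadjusted p under 0.05 was found for 0 of 10, beside 559 of all 13750 genes. Ctsh alone of the 10 lay below Nkx without overlap, as 3.91% of all genes did. The 95% interval was -1.14 to 0.04 for Lamp3 and -0.76 to 0.38 for Napsa. At 6 months the 5 that passed as lower were Sftpa1, Napsa, Lamp3, Lpcat1 and Slc34a2, with Abca3 below Nkx without overlap as well; 15.7% of all genes were below in this way. Markers of other cells moved in the same comparison, where 11.5% of all genes passed as lower and 10.2% as higher. In it 10 of 10 endothelial markers passed as lower (median log2 difference -2.38), as did 7 of 12 AT1, 9 of 10 ciliated and 2 of 9 measured club cell markers. Of 11 measured mesenchymal markers 7 passed as lower and Fn1 as higher (1.65). Of 13 measured leukocyte markers Csf1r passed as lower (-1.41) and Cd68 as higher (1.5). Of the 10 pan-epithelial genes 9 passed as higher. The part of these shifts in the surfactant results was not tested, beyond the scaling to pan-epithelial genes. Under it 8 of the 10 members passed as lower in this comparison, Sftpb (-1.14, adjusted p = 0.0118), Ctsh and Abca3 (-1.18, adjusted p = 0.00367) in addition. That scaling also set the median of all genes at -0.47, and 7.18% of the calls over all genes were higher. Up to 8130 of 15958 genes passed under the alternatives to the main model, so the 8 of 10 is not a result about the members. Of the 10 leukocyte markers measured at E18.5, 4 passed as lower in Nkx and 7 in Double against WT, beside 3.65% and 7.47% of all genes. The part of the leukocyte markers was not tested.

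Single libraries carried much of the spread. Among all E18.5 libraries, Double replicate 2 held the lowest value of 8 of the 10 genes, and among all 6-month libraries Double replicate 1 held the lowest of 6. WT replicate 3 at E18.5 was the lowest WT library for 7 genes and the highest for the other 3, which were Sftpa1, Lamp3 and Slc34a2. The number of members that passed in E18.5 Nkx was 4 without that library, and 1 without WT replicate 1, Nkx replicate 2 or Nkx replicate 3. In E18.5 Double it was 5 without WT replicate 1 or WT replicate 2, against 8 with all libraries. With only the Double and WT groups in the model 3 passed (Sftpa1, Napsa and Lpcat1), and the adjusted p was 0.0825 for Sftpb, 0.0597 for Sftpc, 0.0591 for Lamp3 and 0.0553 for Slc34a2. Among female-pattern libraries alone, 2 of WT and 2 of Double at E18.5, 0 of 10 passed in this comparison, and Napsa had an adjusted p of 0.0643. At 6 months, female-pattern libraries alone (1 of WT) gave 3 of 10 in Double against WT, and Sftpa1 (adjusted p = 0.156), Sftpb (0.204), Abca3 (0.0534) and Lamp3 (0.0824) did not pass.

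Among 29 other AT2 genes, 12 fell and 0 rose in E18.5 Nkx against WT, beside 3.65% of all genes lower and 3.67% higher. In E18.5 Double 17 of the list fell and 0 rose, beside 7.47% and 7.13% of all genes. The median differences of the list were -0.9 and -1.22, lower than or close to those of the surfactant genes. Lyz2, the lysozyme gene, fell in both groups (log2 difference -2.52 ± 0.36 in Nkx and -2.76 ± 0.36 in Double), as did S100g, a calcium-binding protein gene (-2.16 ± 0.28 and -2.68 ± 0.28). The 10 leukocyte markers measured had median differences of -2.41 and -2.56 in the same comparisons. Their part in the Lyz2 values was not tested. Lrp2, an endocytic receptor gene, changed by -2.9 ± 0.49 and -2.57 ± 0.49, and the acyl-CoA oxidase-like gene Acoxl by -2.83 ± 0.6 and -3.37 ± 0.6. In 6-month Double against WT 19 fell and 3 rose, beside 17.9% of all genes lower and 18.4% higher. The share of the list that rose was thus below that of all genes. The falls were led by Acoxl (-5.27 ± 0.28), Pon1 (-4.25 ± 0.31), Bex2 (-3.53 ± 0.3) and Hc (-2.57 ± 0.5). Bex2 was the 1 gene of the list that passed in 6-month Nkx against WT (-2.4 ± 0.32), beside 1.11% of all genes that passed as lower. Against Nkx, 13 fell and 1 rose in 6-month Double, beside 11.5% of all genes lower and 10.2% higher. Among those of the list that fell were Acoxl (-4.1 ± 0.28), Pon1 (-3.22 ± 0.31), Sfta2 (-1.83 ± 0.29) and Rbpjl (-1.71 ± 0.42).

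Of 32 other genes of phospholipid synthesis and turnover, 3 fell in E18.5 Nkx against WT, beside 3.65% of all genes. These 3 were Prdx6, whose product also degrades surfactant phospholipid (-1.1 ± 0.18), the lipogenesis regulator gene Mid1ip1 (-1.07 ± 0.24) and the fatty acid elongase gene Elovl1 (-0.93 ± 0.22). In E18.5 Double 8 fell and 1 rose, beside 7.47% of all genes lower and 7.13% higher. The desaturase gene Scd1 (-2.02 ± 0.42), Mid1ip1 (-1.26 ± 0.24) and Prdx6 (-1.13 ± 0.18) fell, and the elongase gene Elovl6 rose (2.12 ± 0.42). At 6 months 16 fell and 5 rose in Double against WT, beside 17.9% of all genes lower and 18.4% higher. The share of the list that rose was thus below that of all genes. Mid1ip1 (-2.25 ± 0.21), Elovl1 (-2.08 ± 0.3) and the acetyl-CoA carboxylase gene Acaca (-1.95 ± 0.18) fell, and the secreted phospholipase gene Pla2g1b rose (2.29 ± 0.17). Against Nkx, 10 fell and 2 rose in 6-month Double, beside 11.5% of all genes lower and 10.2% higher. The share that rose was again below that of all genes. Pla2g1b was higher here as well (1.57 ± 0.17), and Mid1ip1 (-1.35 ± 0.21), Elovl1 (-1.32 ± 0.3) and Lpin2 (-1.17 ± 0.28) were lower. In 6-month Nkx against WT 3 fell, beside 1.11% of all genes. These were Acaca (-0.9 ± 0.2), the ethanolamine kinase gene Etnk1 (-0.66 ± 0.13) and the acyltransferase gene Agpat3 (-0.47 ± 0.1). The median difference of the list was -0.34 in E18.5 Double and -0.85 in 6-month Double against WT, where all genes had 0.02 and 0.06. In E18.5 Double against Nkx 0 of the 32 passed, with 1 at an unadjusted p under 0.05, beside 559 of all 13750 genes. Fasn, Scd1 and Fabp5 also stood among the other AT2 genes.

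The 26 genes of lamellar body trafficking and surfactant uptake gave fewer calls. In E18.5 Double against WT 3 fell, beside 7.47% of all genes. These 3 were Rab27a, a GTPase gene of secretory organelle docking (-1.56 ± 0.16), the lipid exporter gene Abca1 (-1.34 ± 0.27) and Adgrf5, the gene of a receptor that holds surfactant levels down (-0.98 ± 0.21). Rab27a alone fell in E18.5 Nkx (-1.12 ± 0.16), a share of the list near the 3.65% of all genes that passed as lower. At 6 months 4 fell and 4 rose in Double against WT, shares of the list below the 17.9% and 18.4% of all genes that passed as lower and higher. Among them were Adgrf5 (-1.98 ± 0.23), the vacuolar sorting gene Vps33b (-0.95 ± 0.14) and the syntaxin gene Stx2 (-0.75 ± 0.16), which fell, and the tetraspanin gene Cd63, which rose (0.62 ± 0.13). Against Nkx, Adgrf5 alone fell (-1.4 ± 0.23) and Rab27a alone rose (0.59 ± 0.19), shares below the 11.5% and 10.2% of all genes. In 6-month Nkx against WT Vps33b fell (-0.69 ± 0.15) and the SNARE gene Snap23 rose (0.5 ± 0.11), beside 1.11% and 1.52% of all genes. The medians of this list in Double against WT were -0.1 at E18.5 and 0.02 at 6 months, against 0.02 and 0.06 for all genes.

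In NANCI against WT, 0 genes of these 3 lists passed. An unadjusted p under 0.05 was found for 1 of the 29 AT2 genes, 1 of the 32 phospholipid genes and 0 of the 26 trafficking genes. Of all 13750 genes, 426 had such a p.

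Nkx2-1 itself did not pass in any comparison. At E18.5 its log2 difference from WT was 0.08 ± 0.14 in NANCI, 0.07 ± 0.14 in Nkx and 0.06 ± 0.14 in Double libraries, and Double minus Nkx was -0.01 ± 0.14. The 6-month difference was -0.52 ± 0.17 for Nkx (adjusted p = 0.128) and -0.35 ± 0.16 for Double (adjusted p = 0.114), and Double minus Nkx was 0.17 ± 0.16. These values are per gene ID and do not say whether a transcript came from the intact or the GFP allele.

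Of the regulators of the AT2 program that were listed, 19 were measured at E18.5 and 20 at 6 months. In E18.5 Nkx 1 rose and 3 fell, and in E18.5 Double, 6-month Double against WT and 6-month Double against Nkx 2 rose and 3 fell in each. At 6 months these shares of the list were below those of all genes against WT (18.4% higher and 17.9% lower) and near them against Nkx (10.2% and 11.5%). At E18.5, 3.67% of all genes passed as higher and 3.65% as lower in Nkx against WT, and 7.13% and 7.47% in Double. In 6-month Nkx against WT 0 of the 20 passed, with 5 at an unadjusted p under 0.05, beside 3495 of all 15958 genes. In E18.5 NANCI against WT and Double against Nkx 0 of the 19 passed, with 0 and 1 at an unadjusted p under 0.05. Of all 13750 genes, 426 and 559 had such a p there. Cebpa, the gene of a C/EBP factor of AT2 maturation, fell at E18.5 in the Nkx group (-0.75 ± 0.17, adjusted p = 0.0182) and the Double group (-1.02 ± 0.17, adjusted p = 0.00195). It did not pass at 6 months (-0.33 ± 0.16 in Nkx and -0.33 ± 0.15 in Double). Etv5, the gene of an ETS factor downstream of FGF signals, fell in E18.5 Double (-0.63 ± 0.14, adjusted p = 0.00951) and in 6-month Double against WT (-2.41 ± 0.35, adjusted p = 0.000337) and Nkx (-1.6 ± 0.35, adjusted p = 0.00769). The pioneer factor gene Foxa1 rose in E18.5 Double (0.57 ± 0.13, adjusted p = 0.013), and its relative Foxa2 fell in 6-month Double against Nkx (-0.46 ± 0.13, adjusted p = 0.0242). Cebpa, Etv5, Foxa1 and Foxa2 were not among the passing genes of any other comparison. Klf5 was higher in Double against WT at both ages (0.87 ± 0.14 and 1.39 ± 0.18), in E18.5 Nkx (0.86 ± 0.14) and in 6-month Double against Nkx (0.99). Id2, an inhibitor of helix-loop-helix factors, fell in E18.5 Nkx (-0.87 ± 0.15) and Double (-0.83 ± 0.15), and in 6-month Double against Nkx (-0.81). Sox9, a distal tip progenitor gene, fell in E18.5 Nkx (-0.77 ± 0.19) and rose in 6-month Double against WT (2.21 ± 0.73), where the sterol regulator gene Srebf2 fell (-0.89 ± 0.15).

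The genes whose library profiles were most like the median profile of the 10 members were named by the smallest root-mean-square difference of values centred on each gene's mean. Over the 12 E18.5 libraries they were Atp6v1c2, a proton pump subunit gene (0.15 log2 units; Double minus WT -1.2), Col4a1 (0.15; -1.13), the fatty acid desaturase gene Fads1 (0.15; -1.2), Pmp22 (0.17; -1.12) and Afap1l1 (0.18; -1.01). Over the 10 libraries of 6 months they were Fam184a (0.11; -1.65), Kcnj2 (0.17; -1.69), Lgi3 (0.18; -1.83), Anpep (0.18; -1.48) and Ptprm (0.19; -1.52). No gene was among the 5 at both ages.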

How the data were processed

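Per the labels, RNA of lung epithelial cells was extracted with Trizol, and library construction is not given. The submitters' processing notes name STAR, limma and the build mm9, with no versions or roles. The authors deposited 1 log2 value per Ensembl gene ID in each of 22 libraries; the values were taken as quantile-normalized within an age, which is inferred from their shared distribution. That scaling caps the most abundant gene, sets the other values by rank and removes any shift shared by most genes. Read depth is unknown; the distinct values below a library's median, 209 to 284 (E18.5) or 128 to 382 (6 months) in number, limit the precision of low genes. Symbols and coordinates came from GENCODE M21 on GRCm38, matched on gene ID for 99.2% and 96.2% of IDs.

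Groups were taken from the labels. For each age, 1 limma model (version 3.58.1, R 4.3.3) with a mean-variance trend held all its groups. Adjustment over all genes followed Benjamini and Hochberg, with a threshold of 0.05. The script was tested on simulated data. Differences are given ± SE, and levels ± SD. Ratios within a library were compared by exact two-sided permutation. Alternatives were no trend, both groups alone, a mean of at least 5, the replicate block, scaling to 10 pan-epithelial genes, a sex covariate, each replicate left out, and, added after seeing the data, female-pattern libraries alone. Named were all members, Nkx2-1 in each comparison, and the regulators Cebpa, Etv5, Foxa1 and Foxa2 mainly where they passed. Also named were up to 4 passing genes of each of 4 pathway lists, and 5 genes per age by likeness. The members and lists were chosen with earlier results of these data known.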

Additional observations from a re-analysis of the deposited data

How the results depend on the processing

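The number of members that passed in E18.5 Nkx against WT was 2, and it was 1 relative to the pan-epithelial genes, 0 in female-pattern libraries alone and 1 to 4 with a replicate left out. In E18.5 Double against WT it was 8, against 3 with both groups alone in the model, 0 in female-pattern libraries alone (2 a group, fewer samples) and 5 to 9 with a replicate left out; it was 10 relative to the pan-epithelial genes, 7 with no trend and 7 with the sex covariate. In 6-month Double against WT it was 7, with 6 under the sex covariate, 8 relative to the pan-epithelial genes and 3 in female-pattern libraries alone, with 1 WT library that was assumed to vary like the other groups. In 6-month Double against Nkx it was 5, with 4 under the sex covariate, 4 in female-pattern libraries alone and 8 relative to the pan-epithelial genes. NANCI against WT, E18.5 Double against Nkx and 6-month Nkx against WT had 0 under all alternatives run. Except where the construction shows it, the cause was not tested. The scaling to pan-epithelial genes shifted the median of all genes to -0.18 in E18.5 Nkx, -0.37 in E18.5 Double, -0.52 in 6-month Double against WT and -0.47 against Nkx, and the share of calls that were higher from 50.1% to 23.9%, 48.9% to 13.8%, 50.7% to 9.75% and 47.1% to 7.18%; in E18.5 Double against Nkx it shifted the median to -0.19, and in 6-month Nkx the share moved from 57.8% to 36.7%.

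Differences near 0 changed sign. With a replicate left out, NANCI against WT ran from -0.35 to 0.14 for Sftpb, -0.37 to 0.11 for Sftpd, -0.05 to 0.25 for Lamp3 and -0.11 to 0.12 for Lpcat1. E18.5 Double against Nkx ran from -0.67 to 0.09 for Sftpa1 and from -0.37 to 0.04 for Napsa, both above 0 without Double replicate 2. Lamp3 in 6-month Nkx ran from -0.02 to 0.18. Ctsh was 0.02 in E18.5 Nkx in female-pattern libraries alone and -0.42 in 6-month Double against WT relative to the pan-epithelial genes.

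No clear pairing by replicate number was seen. Deviations of same-numbered libraries correlated at -0.28 to 0.5 (median -0.02, 18 pairs) at E18.5 and -0.3 to 0.13 (median -0.07, 9 pairs) at 6 months. Differently numbered libraries gave -0.51 to 0.43 (median 0.01, 36 pairs) and -0.19 to 0.34 (median 0.02, 24 pairs). With so few libraries a group, this check cannot exclude pairing. With the replicate block 2, 8, 7 and 4 members passed in E18.5 Nkx, E18.5 Double, 6-month Double against WT and 6-month Double against Nkx, and 0 in the other 3 comparisons. Over all genes, calls ranged with a replicate left out from 466 to 2179 in E18.5 Nkx (1007 with all), 1182 to 2691 in E18.5 Double (2008), 59 to 211 in 6-month Nkx (419) and 2204 to 3492 in 6-month Double against Nkx (3460). They were 131 with the replicate block in 6-month Nkx and 2285 in 6-month Double against Nkx, and 5, 84, 4, 2297 and 1998 in female-pattern libraries alone. Other alternatives gave as few as 491, 928, 98 and 3851 in E18.5 Nkx, E18.5 Double, 6-month Nkx and 6-month Double against WT, and as many as 9037 and 8130 in 6-month Double against WT and Nkx.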
